A study of Gallus gallus with 26 samples.

Results

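The genes of the cytosolic ribosomal proteins were described in messenger RNA libraries of normal and cancerous chicken ovary. They were chosen by symbol, as RPL or RPS followed by a number with an optional A, X, Y or L and a further digit, together with RPLP0, RPLP1, RPLP2 and RPSA. This gave 71 of the 25079 genes of the deposited tables, 44 named for the large and 27 for the small ribosomal subunit. The symbol RPSA itself was not among the genes analysed here, and kinases such as RPS6KB1 did not match. All 71 were protein coding in the RefSeq gene table of assembly GRCg7b.

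Ribosomal proteins and ribosomal RNA form the large and the small subunit of the ribosome, which translates messenger RNA in the cytosol. Most of the proteins are needed in 1 copy per ribosome, and their messenger RNAs are among the most abundant of most cells, including those of the ovary. In vertebrates these messenger RNAs start with a tract of pyrimidines, and the translation of messenger RNAs with that tract is controlled by the kinase complex mTORC1 and the binding protein LARP1.

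The libraries came from Gallus gallus and fell into 3 groups: normal ovary (4 libraries), ovarian cancer of early stage (4 libraries) and ovarian cancer of late stage (5 libraries). Sample numbers in the labels were 3, 4, 6 and 7 for normal ovary, 9, 11, 12 and 21 for early tumours and 3, 7, 23, 25 and 31 for late tumours, and libraries are named here by group and number. The labels gave no treatment, breed, age, sequencing batch or tumour histology, and did not say whether the samples were taken from different hens, so that p-values reflect only the spread among these samples, which may be technical. They also did not say whether late 3 and normal 3, or late 7 and normal 7, share a hen.

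Total estimated counts ranged from 16273700 to 20118600 per library. Markers of follicle cells were present in every group: the 12 granulosa and theca markers summed to between 691 and 1560 CPM (counts scaled to a common library total) in every library, and the 11 epithelial markers to between 1160 and 1806 CPM. Between libraries of a group the common coefficient of variation, beyond counting error, was 33.6%. The median over all genes was 27.8%, against 33.95% for the ribosomal protein genes.

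Of the 71 genes, 70 had counts in every library and passed the filter on low counts. The exception was RPL3L, a paralog of RPL3 that mammals express mainly in striated muscle. It had 26 counts in all, at most 4 in a library, and none in normal 3, normal 6 and normal 7. All further counts of genes and all tests refer to the 70 that passed.

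Summed over the 71 genes, ribosomal protein messenger RNA took from 3.16% to 9.70% of a library's counts, a range of 3.07-fold. In normal ovary the share was 5.43% in sample 3, 8.01% in sample 4, 7.02% in sample 6 and 5.80% in sample 7. In early tumours it was 9.70% in sample 9, 4.16% in sample 11, 4.70% in sample 12 and 9.27% in sample 21. Early 9 and early 21 were above every other library, and early 11 and early 12 were below every normal library. In late tumours the share was 3.16% in sample 3, 5.77% in sample 7, 6.16% in sample 23, 7.70% in sample 25 and 4.41% in sample 31. The group means were 6.57% ± 1.18 (SD, n = 4) in normal, 6.96% ± 2.93 (SD, n = 4) in early and 5.44% ± 1.73 (SD, n = 5) in late samples. The 3 groups overlapped, and the early group spanned nearly the whole range. A sum over chosen genes was given no test.

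**Figure D1:**
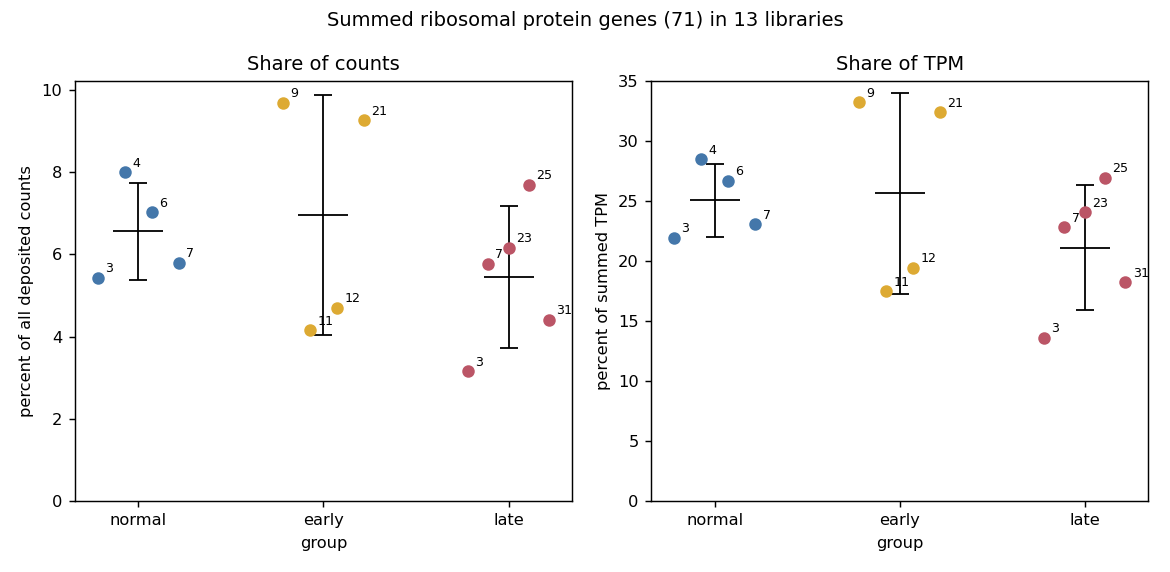
Share of each library taken by the 71 summed ribosomal protein genes, as percent of counts (left) and as percent of summed TPM (right), with a point per library labelled by sample number, and the mean (long bar) and SD (whiskers) of each group. Early 9 and early 21 lie at 9.70% and 9.27% of counts, early 11 and early 12 at 4.16% and 4.70%, and late 3 is lowest at 3.16%.

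Per unit of transcript length the share was larger. In TPM (which scales for gene length and library total) the 71 genes made up 25.1% ± 3.06 (SD, n = 4) of normal, 25.6% ± 8.35 (SD, n = 4) of early and 21.1% ± 5.25 (SD, n = 5) of late libraries. Single libraries ran from 13.6% in late 3 to 33.2% in early 9. The genes are short: relative to the median gene, the effective length implied by counts over TPM ran from 0.033 for RPS29 to 0.63 for RPL5. Between 32 (late 3) and 43 (early 21) of the 50 genes with the highest TPM of a library were ribosomal protein genes.

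The large-subunit and small-subunit genes moved together. Large-subunit genes summed to between 8.06% and 18.7% of TPM, and small-subunit genes to between 5.54% and 14.5%, with late 3 lowest and early 9 highest in both. Their ratio in TPM stayed between 1.28 and 1.47 over the 13 libraries. It was 1.33 ± 0.03 (SD, n = 4) in normal, 1.34 ± 0.07 (SD, n = 4) in early and 1.39 ± 0.07 (SD, n = 5) in late samples. The highest ratios, 1.47 in late 31, 1.45 in late 3 and 1.43 in early 11, were in libraries with a low share of ribosomal protein counts.

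Levels per length differed between the genes. The highest mean TPM over the 13 libraries belonged to RPL37A of the large subunit (8482 ± 2194, SD), RPS12 (7761 ± 2502, SD) and RPS24 (7532 ± 2692, SD) of the small subunit, RPL38 (6330 ± 1691, SD) and RPS16 (6142 ± 2390, SD). These SDs cover all 13 libraries, and neighbours in this order differed by less than their SD. At the low end were RPL22L1 (1099 ± 235 TPM, SD), RPL5 (886 ± 256 TPM, SD), RPL7L1 (250 ± 50.7 TPM, SD), RPS27L (103 ± 9.88 TPM, SD) and RPL3L (0.115 TPM). All of these except RPL5 carry the name of a paralog of another ribosomal protein. RPL5, which with RPL11 binds a small ribosomal RNA and in human cells the p53 regulator MDM2, had the longest effective length of all members tested, and its TPM depends on the gene model used for that length, which the sources used here do not give.

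RPS24 varied most between libraries. After scaling between libraries (normalised CPM, which uses the TMM-scaled library size) it reached 1489, 1929, 2436 and 2009 in normal samples 3, 4, 6 and 7, and 3954, 1392, 1505 and 3199 in early samples 9, 11, 12 and 21. In late samples 3, 7, 23, 25 and 31 it was 619, 2356, 2340, 2469 and 1411. Early 9 was thus 6.39-fold above late 3. RPS16, RPL29 and RPL5 followed, with ranges of 5.998-fold, 5.76-fold and 5.35-fold between the same libraries. The smallest ranges were those of RPL7L1 (1.68-fold), RPS27L (1.78-fold) and RPS27A (1.95-fold), which encodes ubiquitin fused to a small-subunit protein. The median range over the 70 genes was 3.27-fold in normalised CPM. It was 2.50-fold over the other genes tested that were above 0 in every library, as no range was computed for the rest.

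The variation was shared. Each gene was set against the log2 sum of the other ribosomal protein genes over the 13 libraries, on log2(normalised CPM + 1). Pearson's r had a median of 0.96 and was over 0.9 for 58 of 70 genes (82.9%). Among the 16060 other genes tested the median r with the summed ribosomal protein genes was −0.08, and 2.21% were over 0.9. Of these other genes, 53.1% had r below 0. Without early 9 and early 21, the libraries farthest from the median share, the members' median r was 0.95 and 48 were over 0.9. With each group's mean subtracted it was 0.97, and 60 were over 0.9. The median r between pairs of members was 0.91 over 2415 pairs. These coefficients are descriptions, since all genes of a library share its RNA and its scaling.

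The same libraries stood at the ends for most genes. Late 3 was the lowest library for 57 of 70 genes. Early 9 was the highest for 49, and early 21 for 10.

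**Figure D2:**
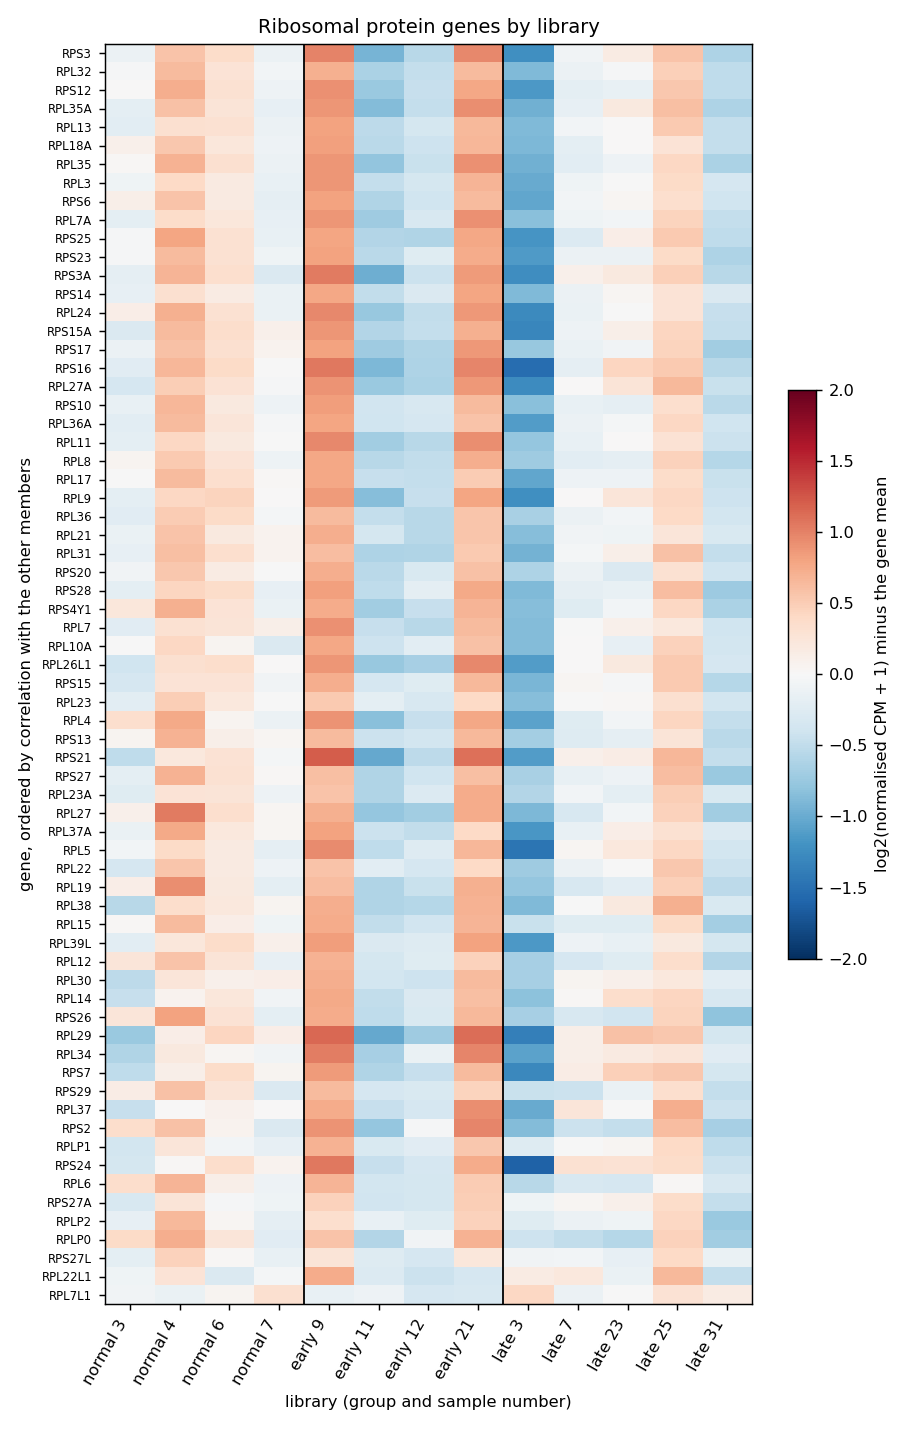
Level of 68 of the 70 ribosomal protein genes tested (rows, ordered by their correlation with the other members) in each library (columns, by group and sample number), as log2(normalised CPM + 1) minus the gene's mean over the 13 libraries. Columns early 9 and early 21 are red and late 3 is blue for nearly all genes, while RPL7L1 and RPL22L1 at the bottom depart from that pattern.

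RPS3, a small-subunit protein at the entry of the messenger RNA channel, followed the others most closely (r = 0.99, Spearman's rho 0.99). It had 912, 1475, 1277 and 918 normalised CPM in normal samples 3, 4, 6 and 7. In early samples 9, 11, 12 and 21 it had 1979, 522, 673 and 1938, and in late samples 3, 7, 23, 25 and 31 it had 425, 946, 1116, 1475 and 648. Early 9 and early 21 were highest and late 3 lowest, as for the sum. RPL32 of the large subunit also had r = 0.99 (rho 0.96). RPS6, the ribosomal protein phosphorylated by S6 kinase downstream of mTORC1, had r = 0.98 and 987 ± 216 (SD, n = 4) normalised CPM in normal, 1018 ± 479 (SD, n = 4) in early and 777 ± 254 (SD, n = 5) in late samples. RPL11 had r = 0.98 and RPL5 r = 0.95.

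The genes that followed the others least were RPL7L1 (r = −0.38, the only one below 0), RPL22L1 (0.46), RPS27L (0.77), RPLP0 (0.80), RPLP2 (0.81), RPS27A (0.84) and RPL6 (0.85). RPLP0, RPLP1 and RPLP2 form the stalk of the large subunit that recruits elongation factors. RPLP1 had r = 0.88, so that all 3 stalk genes were below 0.9.

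RPL22L1 is a paralog of RPL22, and in mice the loss of RPL22 raises it. It had 216, 275, 187 and 223 normalised CPM in normal samples 3, 4, 6 and 7, and 384, 188, 170 and 182 in early samples 9, 11, 12 and 21. In late samples 3, 7, 23, 25 and 31 it had 257, 266, 209, 361 and 163. Early 9 was highest as for other members, but early 21 was among the lowest and late 3 was in the upper range. In TPM, RPL22L1 amounted to 53.9% ± 12.9 (SD, n = 4) of RPL22 in normal, 49.8% ± 11.6 (SD, n = 4) in early and 64.9% ± 19.2 (SD, n = 5) in late samples. The lowest value was 34.2% in early 21 and the highest 97.7% in late 3, where RPL22 itself was lowest.

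RPL7L1 is a paralog of RPL7. It had 221, 210, 239 and 289 normalised CPM in normal samples 3, 4, 6 and 7, then 208, 216, 184 and 186 in early samples 9, 11, 12 and 21. The late samples 3, 7, 23, 25 and 31 had 308, 214, 229, 284 and 258. Late 3, the lowest library for most members, was the highest for RPL7L1. Its TPM was 6.51% ± 1.29 (SD, n = 4) of that of RPL7 in normal, 5.71% ± 2.73 (SD, n = 4) in early and 8.999% ± 4.16 (SD, n = 5) in late samples.

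RPS27L, which in human cells is induced by p53, was the least abundant of the tested members. Its level was 23.5 ± 5.45 (SD, n = 4) normalised CPM in normal, 22.5 ± 5.07 (SD, n = 4) in early and 22.8 ± 4.15 (SD, n = 5) in late samples. It amounted to 2.91% ± 0.23, 3.16% ± 0.73 and 3.92% ± 1.07 (SD) of the TPM of RPS27 in these groups. The groups overlapped for all of these ratios.

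**Figure D3:**
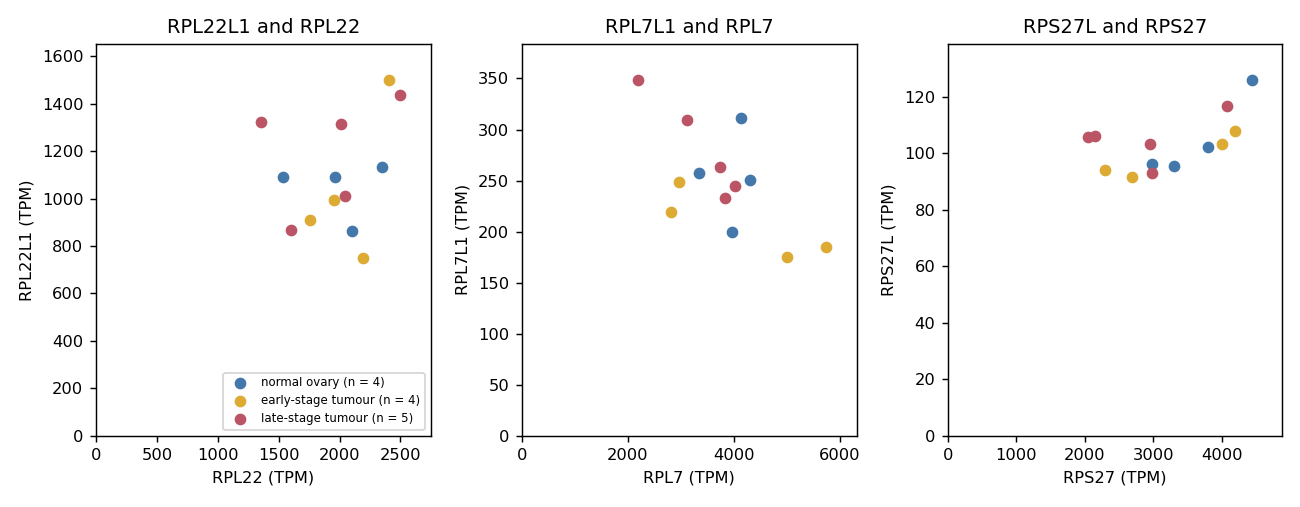
TPM of 3 paralogs (vertical axes) against the TPM of the gene they are named after (horizontal axes), with a point per library coloured by group. RPL22L1 reaches 97.7% of RPL22 in late 3, RPL7L1 is highest where RPL7 is lowest, and RPS27L stays between 91.5 and 126 TPM.

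Some symbols follow human names that the gene table does not keep apart. RefSeq gives RPL26 as another name of RPL26L1, RPL39 of RPL39L, and RPS4 and RPS4X of RPS4Y1, so these 3 were not set against a parent gene above. RPSAP58, outside the symbol rule, carries RPSA among its RefSeq names. It had 1352 ± 362 (SD, n = 4) normalised CPM in normal, 1212 ± 621 (SD, n = 4) in early and 865 ± 316 (SD, n = 5) in late samples, and r = 0.93 with the members. Reads of a ribosomal protein gene can be shared with paralogs or other near-copies, whose number in this genome was not examined. Of the members' counts above 0, 94.6% had decimals, against 43.1% of those of the other genes that passed the filter. These percentages do not measure how many reads were shared, and a gene's split from any near-copies is uncertain.

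Early tumours were compared with normal ovary by edgeR's quasi-likelihood test, with Benjamini-Hochberg adjustment across the 16130 genes tested. No member passed the threshold of 0.05, where 0.0% of all genes did, and the smallest adjusted p of a member was 0.92. Fold changes were positive for 50 and negative for 20 members, with a median of 0.06 on the log2 scale, against 0.01 over all genes. They ran from −0.27 for RPL7L1 (SE 0.15) to 0.54 for RPL34 (SE 0.37). At an unadjusted p under 0.05 no member was lower, where 2.9% of all genes were, and none was higher, where 2.15% were. In no member were all early samples below all normal samples, where 1.2% of genes were, or above them, where 1.17% were. DESeq2 called no member, and 0.0516% of all genes. Limma voom with quality weights called no member, and 0.0% of all genes.

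RPL34 illustrates the spread behind these values. It had 427, 749, 672 and 622 normalised CPM in normal samples 3, 4, 6 and 7. In early samples 9, 11, 12 and 21 it had 1318, 412, 592 and 1280, so that 2 of the 4 early samples were above and 2 within or below the normal range. RPLP1, RPL37, RPS21 and RPL14 were among the next by p of the members with a positive fold change (log2 fold changes 0.32, 0.43, 0.48 and 0.28). On the other side, RPL27, RPL31, RPL19 and RPL6 were among those that followed RPL7L1 (−0.26, −0.14, −0.14 and −0.09). The members' median turned negative without early 9 (−0.17), early 21 (−0.11), normal 3 (−0.01) or normal 7 (−0.0024), and on log2(TPM + 1) (−0.05).

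Late tumours had lower fitted levels than normal ovary for 63 of 70 members and higher ones for 7. The median log2 fold change was −0.30, against 0.01 over all genes, of which 49.1% were lower. No member passed the edgeR threshold, where 0.0% of all genes did, and the smallest adjusted p of a member was 0.26, for RPL6 of the large subunit. At an unadjusted p under 0.05, 2 members were lower (2.86%), where 10.4% of all genes were, and none was higher, where 7.51% were. In no member were all late samples below all normal samples, where 1.37% of genes were, or above them, where 1.24% were. DESeq2 called no member, and 0.813% of all genes. Limma voom with quality weights called no member, and 5.55% of all genes.

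RPL6 had the smallest p of the members. It had 1781, 2228, 1515 and 1295 normalised CPM in normal samples 3, 4, 6 and 7 and 952, 1119, 1111, 1412 and 1119 in late samples 3, 7, 23, 25 and 31. Late 25 lay above normal 7, and the other late samples lay below all normal ones. The log2 fold change was −0.58 (SE 0.25; edgeR p = 0.0352, adjusted p = 0.26).

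The stalk gene RPLP0 had 1191, 1527, 1082 and 787 normalised CPM in the normal and 685, 649, 615, 1260 and 564 in the late samples. Apart from late 25, the late samples lay below the normal ones (log2 fold change −0.60, SE 0.30; edgeR adjusted p = 0.30). Among the next by p were RPL12, RPS26 and RPS13, with log2 fold changes of −0.50, −0.61 and −0.50 and edgeR adjusted p-values of 0.31, 0.31 and 0.33. The positive values belonged to RPL22L1 (0.16), RPL7L1 (0.11), RPL37 (0.10), RPS27A, RPL14 and RPLP1 (each 0.04) and RPL29 (0.02). RPS24, RPL38 and RPL34 had values near 0 (−0.10, −0.02 and −0.01). The median was −0.17 without normal 4, −0.17 without late 3 and −0.50 without late 25, and the number of members lower at an unadjusted p under 0.05 ran from 0 to 10 when single libraries were left out. Without late 25 it was 10 of 70 (14.3%), near the 13.7% of all genes.

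Late tumours were set against early ones with the same late libraries, so this comparison and the previous one share them. The fold change was negative for 67 of 70 members and positive for RPL7L1, RPL22L1 and RPS27L. The median log2 fold change was −0.41, against 0.00 over all genes, of which 49.5% were lower. No member passed the edgeR threshold, where 0.0% of all genes did, and the smallest adjusted p of a member was 0.74. At an unadjusted p under 0.05, 1 member was lower (1.43%), where 3.96% of all genes were, and 1 was higher (1.43%), where 2.39% were. In no member were all late samples below all early samples, where 0.508% of genes were, or above them, where 1.08% were. DESeq2 called no member, and 0.0593% of all genes. Limma voom with quality weights called no member, and 0.0% of all genes.

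The member that was higher at an unadjusted p under 0.05 was RPL7L1, with a mean of 259 ± 38.6 (SD, n = 5) normalised CPM in late and 198 ± 16.04 (SD, n = 4) in early samples (log2 fold change 0.38, SE 0.14). EdgeR's quasi-likelihood p was 0.0175 and its adjusted p 0.74. Late 7, at 214, lay below early 11, at 216, and the other late samples lay above all early ones. The member that was lower was RPL39L, a large-subunit protein, at 411 ± 125 (SD, n = 5) in late and 632 ± 265 (SD, n = 4) in early samples (log2 fold change −0.62, SE 0.29; edgeR adjusted p = 0.74). Its early samples 9, 11, 12 and 21 had 872, 397, 408 and 851, and its late samples 3, 7, 23, 25 and 31 had 219, 454, 440, 560 and 380. Only late 3 and late 31 lay below early 11 and early 12.

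RPS2 of the small subunit had the most negative fold change of late against early samples (−0.70, SE 0.37; edgeR adjusted p = 0.74). Its early samples had 1881, 590, 987 and 1986 normalised CPM and its late samples 550, 744, 725, 1543 and 633, so that all late values but late 3 lay within the early range. Among the members with the smallest p besides RPL39L were RPL6, RPL12, RPLP0 and RPS10, with −0.49, −0.46, −0.52 and −0.51. For these genes too the early group consisted of a pair of high and a pair of low samples. The members' median was −0.16 without early 9, −0.22 without early 21, −0.25 without late 3 and −0.26 on log2(TPM + 1). The number of members lower at an unadjusted p under 0.05 ran from 0 to 20 when single libraries were left out. Without early 11 it was 20 of 70 (28.6%), and 9.06% of all genes were lower there.

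**Figure D4:**
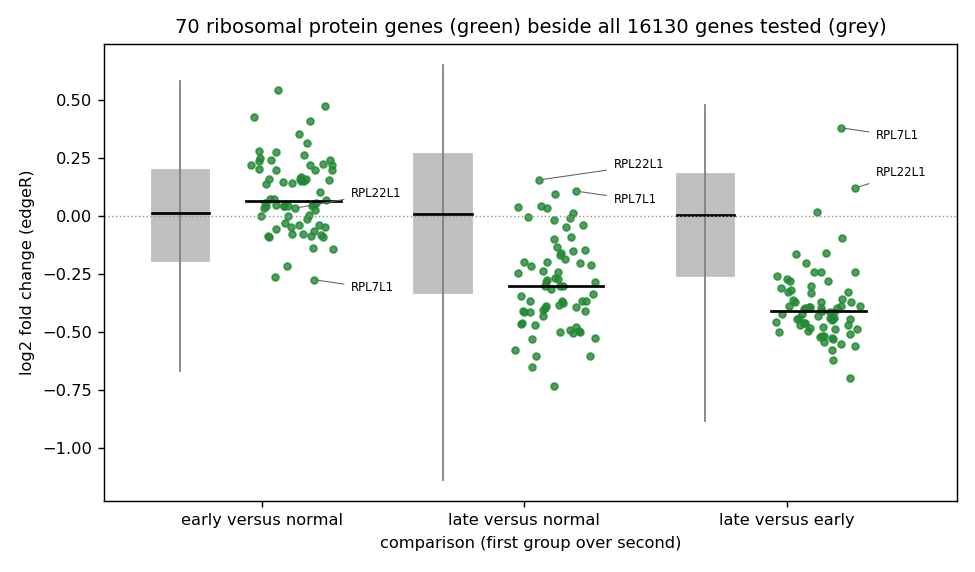
Log2 fold changes of the 70 ribosomal protein genes (green points, black bar at their median) beside all 16130 genes tested (grey box from the 25th to the 75th percentile, grey line from the 5th to the 95th, black bar at the median) in the 3 comparisons. The members' medians are 0.06, −0.30 and −0.41, and all 70 members lie within 1 of 0.

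The standard errors show what could be resolved. The median SE of a member's log2 fold change was 0.34 for early against normal and 0.32 for the other comparisons, against 0.27, 0.25 and 0.25 over all genes. All 70 members had log2 fold changes of less than 1 in size in all 3 comparisons. Because the members' levels were correlated over the libraries, their fold changes are not independent of each other, and a count of members on one side of 0 is not a count of separate results.

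Other genes of the translation machinery were counted by lists, of which some share genes. The sum of a list and the share of the ribosomal protein genes are parts of the same library total, so they are not independent. Values of r for single genes use normalised CPM and the summed members instead. A list by gene symbol held messenger RNAs outside the members taken to start with a 5′ oligopyrimidine tract, such as those of elongation and initiation factors. Their transcript starts in chicken were not examined. Summed, this list followed the ribosomal protein genes. The 26 genes of that list summed to between 22656 and 28449 CPM in normal, 18211 and 32515 in early and 15046 and 27484 in late samples. The log2 of that sum had r = 0.98 (Spearman's rho 0.96; r = 0.97 without early 9 and early 21) with the log2 share of the ribosomal protein genes over 13 libraries. Of the 26, 10 had r over 0.9 with the members, where 2.21% of all genes tested outside the members did. Gene by gene the median r was 0.85, with 1 of 26 below 0, where 53.1% of all genes tested outside the members were. EEF1A1, which brings aminoacyl-tRNA to the ribosome, and TPT1, the translationally controlled tumour protein, each had r = 0.98. These genes were named after their values were seen. EEF1A1 had 9634 ± 1223 (SD, n = 4) normalised CPM in normal, 10237 ± 4068 (SD, n = 4) in early and 8206 ± 2217 (SD, n = 5) in late samples. A large part of the list's sum was thus EEF1A1, and the r of the sum reflects that gene in part.

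In late against normal samples, 22 of the 26 genes were lower and 4 higher, with a median log2 fold change of −0.38, and 7 of 26 were lower at an unadjusted p under 0.05, where 10.4% of all genes were. None passed the edgeR threshold. EIF4B, an initiation factor that is a substrate of S6 kinase, had −0.89 (SE 0.34; edgeR adjusted p = 0.25). In late against early samples, 21 were lower and 5 higher, with a median of −0.33. VIM, the intermediate filament gene on the same list, had r = 0.15.

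The lists of other genes that build ribosomes had negative r when summed, with exceptions among their genes. The 73 mitochondrial ribosomal protein genes, whose products form the separate ribosome of that organelle, summed to between 5260 and 7161 CPM in normal, 4962 and 7605 in early and 6686 and 7716 in late samples. Their r with the share of cytosolic ribosomal protein genes was −0.68 (rho −0.64; r = −0.46 without early 9 and early 21), and 51 of 73 genes had r below 0. Of all genes tested outside the members, 53.1% had r below 0. In late against early samples 61 of 73 were higher, with a median of 0.20, and in late against normal samples 55 were higher, with a median of 0.17. In early against normal samples 37 were lower and 36 higher. None passed the edgeR threshold in any of the 3 comparisons.

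The 74 ribosome assembly factors spanned a narrow range, from 6648 to 8001 CPM, with r = −0.84 (rho −0.79) for the sum. Gene by gene the median r was −0.49, and 54 of 74 were below 0 but 2 over 0.9. Of all genes tested outside the members, 53.1% were below 0 and 2.21% over 0.9. NPM1, a nucleolar histone chaperone that is also on the oligopyrimidine-tract list, had r = 0.95 and was named after its values were seen. Of the 74, 57 were higher and 17 lower in late than in early samples (median 0.12), and 38 higher and 36 lower than in normal samples (median 0.02). BOP1, needed for maturation of the large subunit's RNA, had −1.15 (SE 0.31; edgeR adjusted p = 0.24) in late against normal samples. The 18 genes of RNA polymerase I and its factors had r = −0.81 (rho −0.74) for the sum and a median r of −0.15, with 12 of 18 below 0. In late against normal samples 11 were higher and 7 lower, with a median of 0.09. UBTF, which activates ribosomal RNA genes, had −1.27 (SE 0.39; edgeR adjusted p = 0.24) and r = 0.77 with the members, and POLR2K, a subunit shared by the RNA polymerases, had 0.44 (SE 0.17; edgeR adjusted p = 0.25) and r = −0.73. The 16 chaperones and import factors of ribosomal proteins had r = −0.87 (rho −0.88) for the sum, with 10 of 16 genes below 0 and 1 over 0.9, and 13 of them were higher in late than in normal samples, with a median of 0.06. None of these lists had a gene past the edgeR threshold.

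The summed CPM of the 26 genes of mTORC1 and of the regulators of oligopyrimidine-tract messenger RNAs had r = −0.59 (rho −0.48; r = −0.20 without early 9 and early 21). Gene by gene the sign differed, with a median r of 0.17 and 11 of 26 below 0. Of all genes tested outside the members, 53.1% were below 0. In late against normal samples 19 were lower and 7 higher, with a median of −0.09. At an unadjusted p under 0.05, 4 of 26 were lower, where 10.4% of all genes were. None passed the edgeR threshold. Among the genes with the smallest p, EIF4G1, the scaffold of the cap-binding complex, had −0.72 (SE 0.23; edgeR adjusted p = 0.24), and DDIT4, an inhibitor of mTORC1, −0.77 (SE 0.28; edgeR adjusted p = 0.24). The 18 ribosome-associated factors and ubiquitin-like fusions, among them RACK1, a scaffold on the small subunit, had r = 0.90 (rho 0.91) for the sum but a median r of 0.07, with 8 of 18 below 0, and 10 were lower and 8 higher in late than in normal samples. RACK1 had r = 0.94 with the members.

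**Figure D5:**
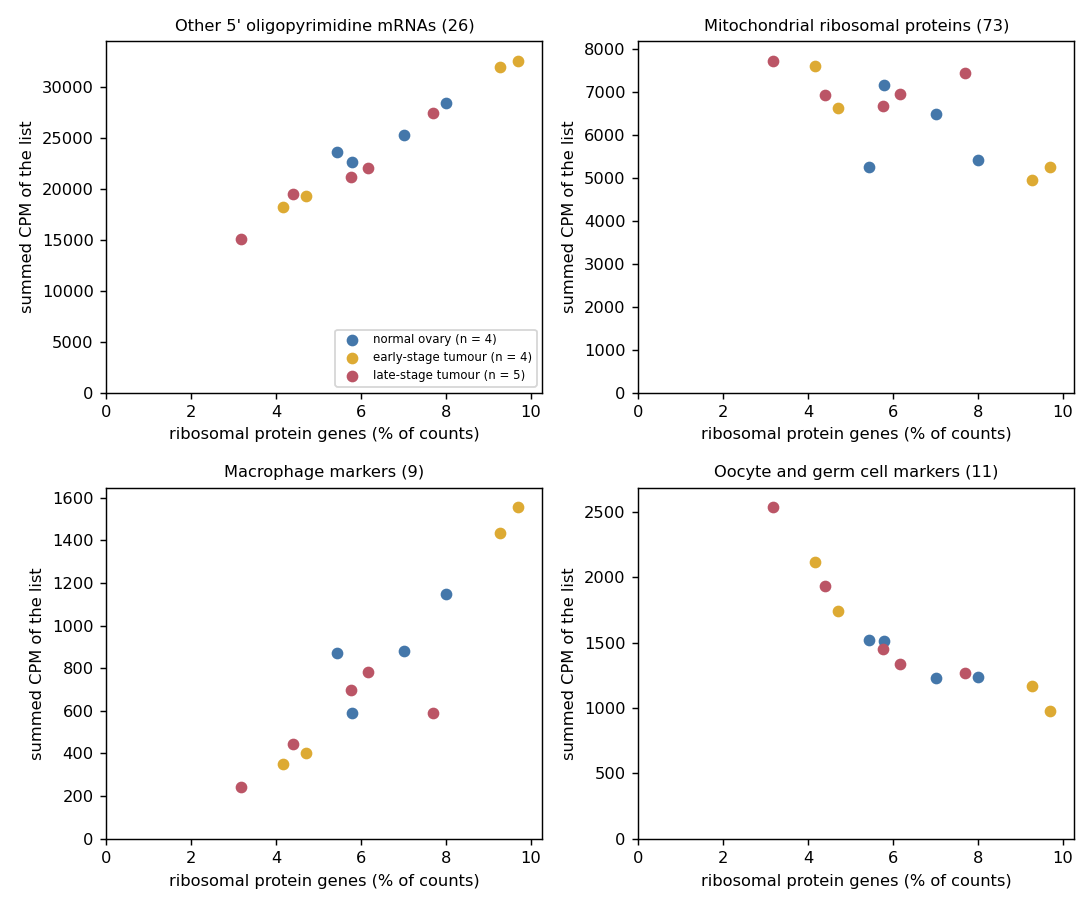
Summed CPM of 4 lists (vertical axes) against the share of counts of the 71 ribosomal protein genes (horizontal axes, percent), with a point per library coloured by group. The oligopyrimidine-tract and macrophage lists are high where the share is high (r = 0.98 and 0.93), and the mitochondrial ribosomal protein and germ cell lists are low there (r = −0.68 and −0.98).

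Summed markers of some cell types rose with the share of ribosomal protein counts, and those of others fell or showed little relation. In bulk tissue, fewer cells of a type and less RNA per cell cannot be told apart. The 9 macrophage markers, all present in the table, summed to between 591 and 1146 CPM in normal, 350 and 1553 in early and 243 and 780 in late samples, with r = 0.93 (rho 0.87). Gene by gene the median r of the macrophage markers was 0.81, with 2 of 9 below 0 and 1 over 0.9. Of all genes tested outside the members, 53.1% were below 0 and 2.21% over 0.9. The fibroblast markers (11 of 11 present) ran from 3733 to 12721 in normal, 1524 to 9101 in early and 890 to 4943 in late samples, with r = 0.80 (rho 0.75). Lymphocyte markers (12 of 13) ran from 1347 to 5648, 1191 to 4623 and 123 to 3025 in these groups, with r = 0.76 (rho 0.63). Of the 9 lymphocyte markers that passed the filter, 1 had r below 0, and the median r was 0.65. Smooth muscle markers (11 of 12) ran from 1047 to 11295, 662 to 4921 and 281 to 2125, with r = 0.72 (rho 0.72). Fold changes in late against normal samples were negative for all 11 smooth muscle, all 11 fibroblast and all 9 macrophage genes. They were negative for 7 of the 9 lymphocyte genes tested, and for 49.1% of all genes. All 11 smooth muscle genes were lower at an unadjusted edgeR p under 0.05, where 10.4% of all genes were. So were 4 of 11 fibroblast, 3 of 9 macrophage and 2 of 9 lymphocyte genes. None of these genes was higher at that threshold, where 7.51% of all genes were. None of these markers passed the edgeR threshold on adjusted p, where 0.0% of all genes did.

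Endothelial markers (11 of 11) ran from 419 to 508 CPM in normal, 494 to 750 in early and 315 to 573 in late samples, with r = 0.64 (rho 0.36; r = 0.32 without early 9 and early 21). Gene by gene 1 of the 11 endothelial markers had r below 0, and the median r was 0.81. Red blood cell markers (7 of 12) ran from 25.6 to 162, 30.02 to 217 and 12.6 to 105, with r = 0.54 (rho 0.42). Epithelial markers had r = −0.41 (rho −0.39) for the sum. Of the 9 that passed the filter, however, 5 had r below 0 and 3 over 0.9. Of all genes tested outside the members, 53.1% were below 0 and 2.21% over 0.9. Granulosa and theca markers had r = −0.11 (rho −0.14) for the sum, with 5 of 11 below 0. The oocyte and germ cell markers (11 of 12) ran from 1233 to 1523 in normal, 980 to 2116 in early and 1267 to 2534 in late samples, and had r = −0.98 (rho −0.98; r = −0.98 without early 9 and early 21). In late against normal samples, 9 of 11 endothelial and 4 of 4 red blood cell markers tested were lower, and all 11 germ cell markers were higher. Epithelial markers were lower in 5 and higher in 4 cases, and granulosa and theca markers in 6 and 5. None of the markers present was at 0 in every library. Genes annotated as ribosomal RNA ran from 3559 to 5327 CPM in normal, 1827 to 3719 in early and 1525 to 4635 in late samples, with r = 0.68 (rho 0.65). Long non-coding RNA genes took 0.962% to 1.79% of counts, with r = −0.72 (rho −0.70). The part of any of these in the levels of the ribosomal protein genes was not tested.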

How the data were processed

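Messenger RNA was measured in 13 libraries, of which each sample code has 2 records in the labels. Values deposited by the authors were estimated counts per gene, not normalized, and TPM (scaled for gene length and library total) in a second table. Per the submitters' processing notes, the tools included GATK 3.3.0, BWA and FastQC, whose roles the notes do not state. Which program counted the reads, on which build, and how it treated strand and shared reads is not given in the sources used here. Value columns were matched to groups by sample code. The microRNA table was not used here.

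The estimated counts were rounded and tested in R 4.3.3 with edgeR 4.0.16: a single quasi-likelihood fit to the 13 libraries with robust estimation and a mean per group, TMM scaling, filterByExpr with a minimum count of 10 (16130 genes kept), and Benjamini-Hochberg adjustment over all of them with a threshold of 0.05. SEs are those implied by the F statistic. Alternatives were DESeq2 1.42.0, limma 3.58.1 (voom with quality weights, or log2(TPM + 1) and log2(TPM + 0.1) for genes with a mean TPM of at least 1), other scalings, no filter, leaving out each library, and a replicate block. Normalised CPM use the TMM-scaled library size, and CPM of lists the unscaled total. Figures and correlations were made in Python 3.11.15.

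The members follow a rule on symbols, and the members and lists were chosen with earlier results of these data known. Members named were the 6 with the smallest p in each direction of a comparison, the largest and smallest fold changes, the 5 highest and lowest by mean TPM, paralogs, stalk genes, and RPS6, RPL5 and RPL11. Other members are named for an extreme range or correlation. Some genes that these rules name are not reported here. Of each list, genes were named from the 3 with the smallest p in a comparison, unless stated otherwise.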

Additional observations from a re-analysis of the deposited data

Results flagged for a closer look

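For 38 items (the named members and the summed shares) each group was examined for a sample far from the others by Dixon's criterion, in 114 combinations of group and item. Chance flags about 1 in 20 such groups, and 6 were found.

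In late tumours sample 25 stood above the others for 4 genes: RPLP0 (1260 normalised CPM, others 564 to 685), RPS2 (1543, others 550 to 744), RPS26 (597, others 248 to 348) and RPS27L (30.1, others 19.97 to 21.7). In early tumours sample 9 stood above the others for RPL22L1, at 384 normalised CPM against 170 to 188. In normal ovary sample 4 stood above the others for RPS13, at 718 normalised CPM against 452 to 480. Late 25 also had the highest summed share of ribosomal protein counts of its group (7.70%), and normal 4 of its own (8.01%).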

How the results depend on the processing

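No member passed an adjusted p of 0.05 in any of the 3 comparisons under any alternative run, and the smallest adjusted p of a member was 0.0582, in late against normal samples with limma voom with quality weights. The members' median log2 fold change stayed negative for late against normal samples under all alternatives run, from −0.50 to −0.17 when single libraries were left out, and likewise for late against early samples, from −0.60 to −0.16. For early against normal samples it ran from −0.17 to 0.27 without single libraries, and was −0.0455 on log2(TPM + 1), −0.0455 on log2(TPM + 0.1) and −0.0428 without a TPM filter. The number of members lower in late than in normal samples at an unadjusted p under 0.05, 2 in the edgeR fit, was 8 with voom (11.4%, against 16.7% of all genes) and 7 on each of the 3 TPM scales (on log2(TPM + 1) 8.19% of all genes). It ran from 0 to 10 without single libraries. It was 10 without late 25 (13.7% of all genes), 5 without normal 7 (14.7%) and 1 without normal 3 (6.53%). It was 0 without normal 4, late 3, late 7, late 23 or late 31, where 4.73% to 8.31% of all genes were lower. For late against early samples the number lower, 1 in the edgeR fit, was 0 with library totals alone, 2 with DESeq2 (5.38% of all genes) and 25 with voom (35.7%, against 9.93% of all genes and 3.96% in the edgeR fit). It ran from 0 to 20 without single libraries. It was 20 without early 11 (28.6%, against 9.06% of all genes), 12 without late 25 (17.1%, against 5.75%) and 4 without early 12 (5.71%, against 5.67%). It was 0 without early 9, early 21, late 3, late 7, late 23 or late 31, where 1.11% to 3.68% of all genes were lower. The number higher in late than in early samples ran from 0 without early 12 (2.21% of all genes) to 2 without early 9 (2.86%, against 0.851%). The number higher in early than in normal samples, 0 in the edgeR fit, ran from 0 to 1 (without early 11, 1.43% against 2.26% of all genes). Under voom that number was 1 (1.43%, against 4.43%). The causes were not tested. The members' mean share of 6.25% of counts was 23.7% in TPM. Normal and late samples share the numbers 3 and 7 alone. With a replicate block on these 4 libraries the median was −0.43 and 0 members were lower at an unadjusted p under 0.05 (0.546% of all genes). The same 4 libraries without the block, an alternative chosen after seeing the data, gave −0.35 and 0 (1.45% of all genes). Deviations of same-numbered samples from their group means correlated at 0.00 and −0.15, and with no more than 2 shared numbers the samples were not treated as pairs. The spread between libraries, with a median SE of 0.32 to 0.34 for members, limits which fold changes could be resolved.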
